A study of Mus musculus with 12 samples.

Results

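The genes described here are the secreted Wnt ligands, their Frizzled (Fzd) receptors, and the inhibitors of the Sfrp and Dkk families, measured in the liver and the esophagus of adult mice. They were chosen by name: every non-control probe whose RefSeq accession belongs to a mouse gene called Wnt, Fzd, Sfrp or Dkk followed directly by a digit. This gave 45 of the 41174 non-control probes on the array and 36 of the 16535 genes named there, namely 19 Wnt, 9 Fzd, 4 Sfrp and 4 Dkk genes. RefSeq lists 37 such genes, and Fzd9 had no matched probe and was not analysed here. The rule uses names alone and no measured value, but the genes were chosen with earlier results of these data known.

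Wnt proteins are lipid-modified signals that act mostly on neighbouring cells. In the canonical branch a Wnt binds a Frizzled receptor together with Lrp5 or Lrp6, which stops the destruction of beta-catenin and lets it switch on target genes with TCF and LEF factors; other branches steer cell polarity and movement. Sfrp proteins carry a Frizzled-like domain and bind Wnts outside the cell, and Dkk1, Dkk2 and Dkk4 bind Lrp5 and Lrp6. In the liver, Wnt2 and Wnt9b from endothelial cells are known to maintain the metabolic programme of hepatocytes around the central vein, while layered epithelia such as the lining of the esophagus make several Wnts of their own.

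The 12 arrays hold RNA of liver and esophagus, 1 array per organ, from 3 TG and 3 CTR male mice, which the series design calls biological replicates, aged about 8 months on a mixed 129Sv/C57BL6 background. TG mice were Col1a1tetO-Nanog/+;Rosa26rtTA/+, so doxycycline could switch on the pluripotency factor Nanog, and CTR mice were Col1a1+/+;Rosa26rtTA/+, so they carried the rtTA activator without the transgene. Both genotypes drank doxycycline at 0.2 mg/ml in water with 7.5% sucrose for 48 h. The labels place the activator at the Rosa26 locus and name no cell type. The 2 organs of a mouse share an animal number, but esophagus and liver RNA were extracted by different methods: an effect of the method cannot be told apart from one of the organ.

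All values below are log2 of the background-subtracted signal minus the 75th percentile of the same array. A probe counts as detected where the scanner software flagged it as well above background, and array values are given in the order of replicates 1, 2 and 3. The 8 keratinocyte markers (among them Krt5 and Krt14) were detected on all 6 esophagus arrays, and the 7 hepatocyte markers with a probe (among them Alb) on all 6 liver arrays. The Nanog probe was detected on none of the 12 arrays, with means of -8.01 in TG and -8.17 in CTR esophagus. In the livers they were -6.51 in TG and -7.17 in CTR. Whether this probe reads the transgene transcript was not tested, so induction cannot be judged from it. Between 56.4% (liver CTR3) and 81.8% (liver TG3) of all probes were detected on an array, and liver TG3 was the highest of the 6 livers for 16 of the 36 genes and for 45.6% of all genes. In the livers the clock gene Per2 was low in TG2 (-1.73) and CTR1 (-1.60) against 0.66 to 1.27 in the others, whereas in the esophagi it was low in TG1 (-2.92) and TG2 (-2.46). The organs of TG1 and CTR1 therefore differ in this gene although the labels give them to the same mice. In bulk tissue, fewer cells of a type and less RNA per cell cannot be told apart.

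The regions just before the start sites of 4 genes with large differences between the organs are shown so that their base composition can be compared: Wnt4, Wnt3a and Dkk2, which were higher in the esophagus, and Wnt2, which was higher in the liver. Each line holds the 250 bases before the start of transcription in RefSeq (build GRCm38.p6), 5′ to 3′ on the gene's strand, in lower case with any match to CTTTGA or CTTTGT in capitals. These are the core letters bound by TCF and LEF factors, searched on both strands.
Wnt4, chr4:137277385-137277634, plus strand: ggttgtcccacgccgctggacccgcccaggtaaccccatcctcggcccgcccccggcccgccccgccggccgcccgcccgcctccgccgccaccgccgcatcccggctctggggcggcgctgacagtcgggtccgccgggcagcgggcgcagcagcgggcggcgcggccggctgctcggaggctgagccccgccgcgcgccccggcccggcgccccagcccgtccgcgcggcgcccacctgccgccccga
Wnt3a, chr11:59290752-59291001, minus strand: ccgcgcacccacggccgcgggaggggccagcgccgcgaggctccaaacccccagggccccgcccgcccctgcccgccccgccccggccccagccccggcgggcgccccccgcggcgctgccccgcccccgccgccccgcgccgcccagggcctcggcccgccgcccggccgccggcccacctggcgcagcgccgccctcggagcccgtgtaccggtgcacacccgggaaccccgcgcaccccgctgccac
Dkk2, chr3:132085042-132085291, plus strand: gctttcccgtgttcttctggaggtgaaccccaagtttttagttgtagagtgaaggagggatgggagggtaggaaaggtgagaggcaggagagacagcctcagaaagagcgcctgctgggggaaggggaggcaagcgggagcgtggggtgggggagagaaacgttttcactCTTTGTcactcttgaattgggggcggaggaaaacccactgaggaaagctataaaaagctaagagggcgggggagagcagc
Wnt2, chr6:18030446-18030695, minus strand: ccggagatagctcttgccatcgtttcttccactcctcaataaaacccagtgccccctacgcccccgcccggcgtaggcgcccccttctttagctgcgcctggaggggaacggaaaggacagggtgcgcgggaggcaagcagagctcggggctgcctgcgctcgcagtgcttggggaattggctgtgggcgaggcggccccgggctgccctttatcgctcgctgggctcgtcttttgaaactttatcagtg
Guanine and cytosine made up 85.2% of the Wnt4 window, 87.6% of the Wnt3a window, 63.6% of the Wnt2 window and 55.6% of the Dkk2 window. The table held windows for 24 of the 36 genes (27 windows), with a median of 68.0% guanine and cytosine and 22 CpG pairs, against 52.4% and 6 over all 32851 windows. A match was present in 7 of the 27 windows (25.9%) and in 27.6% of all windows, with 1 in the Dkk2 window and 0 in the other 3 printed. A match is a run of letters and not a measured binding site.

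**Figure D1:**
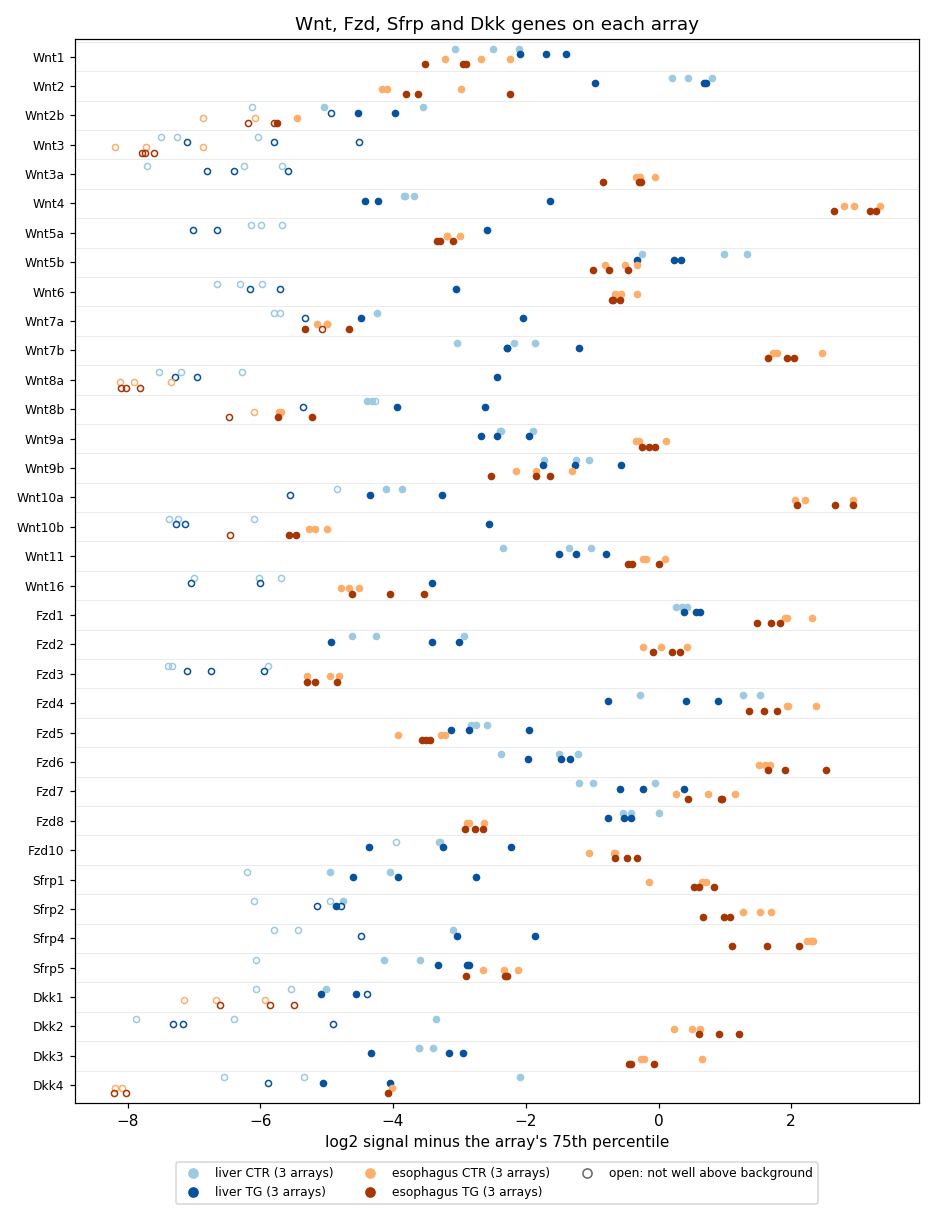
Normalized log2 signal (horizontal axis) of the 36 genes on each of the 12 arrays, with 1 point per array, coloured by organ and genotype; open points were not well above background. Wnt4, Wnt10a, Sfrp2, Sfrp4 and Dkk2 lie far to the right in both esophagus groups, Wnt2 and Fzd8 lie to the right in both liver groups, and TG and CTR points of one organ mostly overlap.

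More of the genes were detected in the esophagus than in the liver, with liver TG3 inside the range of the esophagi. A gene is counted here as detected on an array where any of its probes was. All 9 Frizzled genes and all 4 Sfrp genes were detected on all 3 arrays of both esophagus groups, and so were 15 of the 19 Wnt genes in CTR and 13 in TG. In the liver 7 Wnt, 7 Fzd, 1 Sfrp and 1 Dkk gene were detected on all 3 CTR arrays; the Sfrp gene is Sfrp1, which needs its second probe for this. For the 36 genes together the counts were 30 in CTR and 28 in TG esophagus, and 16 in CTR and 20 in TG liver. By the probe that stands for the gene in the tests alone, they were 30, 28, 15 and 19, and 15 genes were detected on all 12 arrays and 1 (Wnt3) on no array. By any probe, each of the 36 was detected on at least 1 array, 16 on all 12, and Wnt3a and Fzd3 on all 6 esophagus arrays and no liver array. Single arrays detected between 18 (liver CTR3) and 30 (liver TG3) of the genes in the liver and between 29 and 32 in the esophagus. Over all probes the range in the liver was 56.4% to 81.8%, with the same 2 arrays at its ends. In the esophagus it was 69.9% to 75.3%.

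Between the organs of CTR mice, 25 of the 30 genes that could be tested differed: 21 were higher in the esophagus and 4 in the liver (limma, adjusted p under 0.05 over all genes tested). Over all 23364 genes tested 62.4% were called, 27.8% higher and 34.6% lower in the esophagus. All 30 had the tested probe detected on all 3 CTR esophagi, but only 15 had it detected on all 3 CTR livers. A gene dim in the liver could enter through the esophagus alone, which tilts these counts and medians toward the esophagus. With detection required on every array compared, fewer genes were called higher, as given in the closing section. The median difference of the 30 was 2.14 in measured signal, against -0.137 over all genes, and 1.95 with the 6 of them that no CTR liver detected set to the bound explained below. In TG mice 19 of 28 were higher in the esophagus and 4 lower, with 63.2% of all genes called, 24.3% higher and 38.9% lower; the median was 2.19 against -0.363 over all genes. The 22 genes called in both genotypes had the same sign in both, 19 higher in the esophagus and 3 in the liver; these 22 were 78.6% of the 28 tested in both, against 55.2% of all genes. In CTR mice 23 of the 30 genes had all 3 esophagi above all 3 livers and 4 had them all below, where the shares over all genes were 31.1% and 37%; in TG mice 19 of 28 lay all above and 5 all below, against 26.8% and 44.3%. The 8 keratinocyte, 7 fibroblast, 7 smooth muscle and 8 skeletal muscle markers tested were also all higher in CTR esophagus, with medians in measured signal of 9.32, 4.90, 5.59 and 11.21, and the 7 hepatocyte markers all lower (-12.30). Their part in the differences below was not tested.

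**Figure D2:**
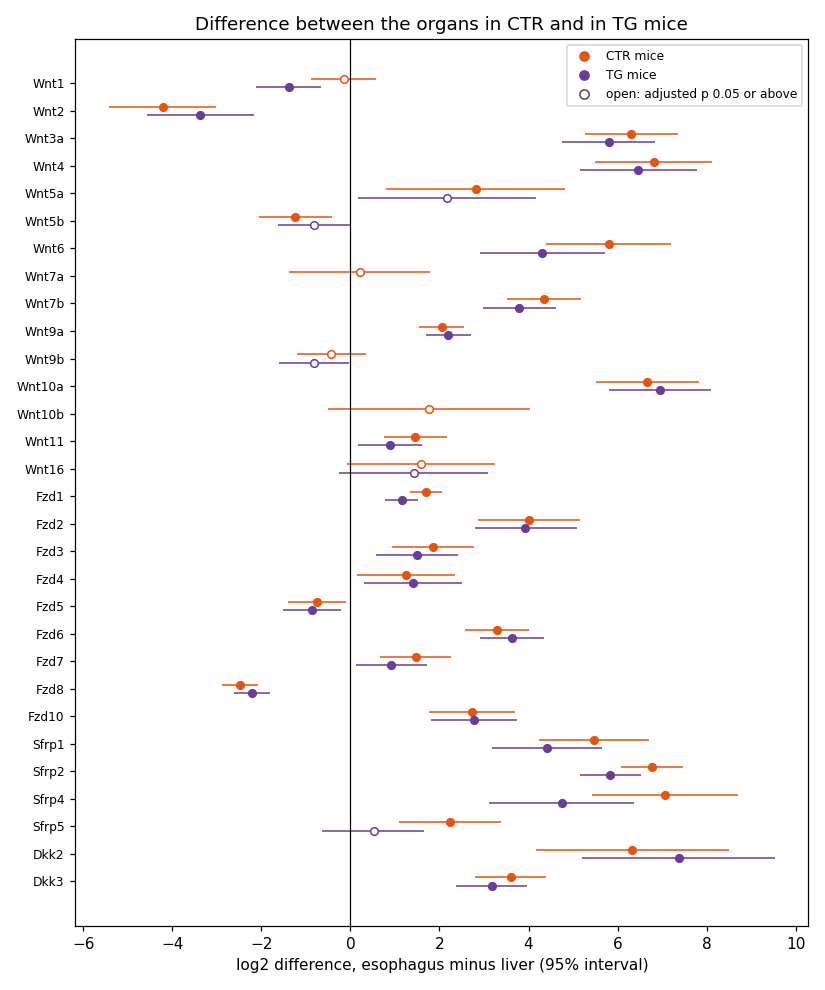
Log2 difference, esophagus minus liver (horizontal axis), with its 95% interval from the limma fit, in CTR and TG mice; filled points passed at an adjusted p of 0.05. Most genes lie to the right of 0, with Sfrp4, Wnt4, Sfrp2 and Wnt10a far out in CTR mice, where Sfrp4 and Sfrp2 were each detected on 1 of 3 livers and Wnt4 and Wnt10a on 2 of 3, while Wnt2, Fzd8 and Fzd5 lie to the left in both genotypes.

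Among the ligands, 8 of the 15 tested were higher in CTR esophagus (Wnt3a, Wnt4, Wnt5a, Wnt6, Wnt7b, Wnt9a, Wnt10a and Wnt11) and 2 in CTR liver (Wnt2 and Wnt5b). Over all genes tested 62.4% were called, 27.8% higher and 34.6% lower in CTR esophagus. Wnt4 (NM_009523), a signal first known from kidney and reproductive tract development, stood at 2.94, 3.34 and 2.80 in CTR esophagi, 3.19, 2.65 and 3.27 in TG esophagi, -3.82, -3.69 and -3.83 in CTR livers and -4.23, -4.43 and -1.63 in TG livers. The organs lay far apart, and liver TG3 was the one liver array well above the rest. In CTR mice the difference was 6.81 (SE 0.59; adjusted p = 3.33e-06), a fold of 112 between measured signals. Wnt10a (NM_009518), which tooth, hair and skin epithelia need, read 2.20, 2.93 and 2.05 in CTR esophagi, 2.66, 2.09 and 2.93 in TG esophagi, -4.11, -3.86 and -4.84 in CTR livers and -5.56, -3.26 and -4.34 in TG livers. Again no liver array came near an esophagus array, and the CTR difference was 6.66 (SE 0.52; adjusted p = 1.41e-06).

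Wnt3a (NM_009522), a strong activator of the canonical branch, was at -0.34, -0.28 and -0.05 in CTR esophagi, at -0.30, -0.83 and -0.27 in TG esophagi, and between -7.70 and -5.59 on the 6 liver arrays. No liver array detected it, so only a bound can be given. The bound sets the mean of the bright group against the lowest signal detected on each array of the dim group, or the probe's own signal where that is higher. Here and below, an adjusted p beside a bound is that of the measured difference (limma), and the bound itself was not tested. Wnt3a was at least 27.1-fold higher in CTR esophagus than in CTR liver (adjusted p = 9.43e-07) and at least 23.2-fold higher in TG mice (adjusted p = 1.86e-06). By the same bound Wnt6 (NM_009526) was at least 22.2-fold higher in CTR esophagus (adjusted p = 1.79e-05). Its neighbour on chromosome 1 is Wnt10a, and Wnt9a, the neighbour of Wnt3a on chromosome 11, was also higher in CTR esophagus (2.05, SE 0.23; adjusted p = 2.01e-05). Of the other neighbouring pairs, neither Wnt10b nor Wnt1 on chromosome 15 passed in CTR mice (1.76 and -0.15), and of Wnt9b and Wnt3 on chromosome 11 only Wnt9b could be tested (-0.43).

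Wnt5a (NM_009524), the main ligand of the polarity branch, read -3.19, -2.99 and -3.19 in CTR esophagi and -3.29, -3.34 and -3.10 in TG esophagi. Liver TG3 at -2.58 was the one liver array that detected it, and it lay above all 6 esophagi; the 5 other livers lay between -7.02 and -5.67. The gene was at least 3.64-fold higher in CTR esophagus than in CTR liver (adjusted p = 0.0192), while in TG mice the difference of 2.17 (SE 0.90; adjusted p = 0.0556) did not pass. The CTR call was lost without liver CTR2 (adjusted p = 0.0521) or esophagus CTR2 (0.0528), and without both arrays of the animals TG1 and CTR1 (0.0781). With single arrays left out, the difference ran from 2.71 to 2.94 and its adjusted p (limma) from 5.13e-07 to 0.0528. The SE pools all 4 groups, and TG livers spread most (SD 2.47, against 0.24 in CTR livers and 0.12 in CTR esophagi). Wnt7b, Wnt9a and Wnt11, the last another ligand of the polarity branch, were higher in the esophagus of both genotypes, with CTR differences of 4.34 (SE 0.37), 2.05 and 1.46 (SE 0.32). The second Wnt9a probe differed by 0.87 in CTR mice.

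Wnt2 (NM_023653), a ligand of liver and lung endothelium, ran the other way. It stood at 0.44, 0.20 and 0.81 in CTR livers and -0.95, 0.71 and 0.69 in TG livers, against -2.97, -4.16 and -4.09 in CTR esophagi and -3.80, -2.24 and -3.62 in TG esophagi. Every liver array lay above every esophagus array, with liver TG1 the lowest liver. Esophagus minus liver was -4.22 (SE 0.54; adjusted p = 6.17e-05) in CTR and -3.37 (SE 0.54; adjusted p = 0.000315) in TG mice. Of the 10 endothelium markers tested, 5 were higher and 3 lower in CTR esophagus, with a median of 0.61. Over all genes tested 27.8% were higher and 34.6% lower. The part of these markers in the Wnt2 difference was not tested.

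Wnt9b (NM_011719), the other central vein ligand, read -1.24, -1.73 and -1.05 in CTR livers, -1.26, -0.57 and -1.74 in TG livers, -2.14, -1.85 and -1.30 in CTR esophagi and -1.64, -2.52 and -1.85 in TG esophagi. The organs overlapped, and neither difference passed (-0.43, SE 0.35, 95% interval -1.21 to 0.36 in CTR; -0.82, SE 0.35, adjusted p = 0.0658 in TG). Wnt5b (NM_009525), a close relative of Wnt5a, read -0.25, 0.98 and 1.34 in CTR livers, 0.24, -0.33 and 0.34 in TG livers, -0.51, -0.81 and -0.32 in CTR esophagi and -0.74, -0.98 and -0.46 in TG esophagi. Livers lay above esophagi within each genotype, by a margin that was narrow at liver CTR1 and liver TG2. The CTR difference of -1.24 (SE 0.37; adjusted p = 0.0139) was lost without liver CTR2 (adjusted p = 0.0507), liver CTR3 (0.0572) or esophagus CTR2 (0.0520), and with the gene's second probe (-0.99, adjusted p = 0.227). Of the other ligands, Wnt7a, Wnt10b and Wnt16 were dim and not called in CTR mice, and Wnt2b, Wnt3, Wnt8a and Wnt8b were detected on all 3 arrays of no group, with lowest and highest array values of -8.19 and -2.44 over the 4.

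The Frizzled receptors divided into 7 that were higher in the esophagus (Fzd1, Fzd2, Fzd3, Fzd4, Fzd6, Fzd7 and Fzd10) and 2 that were higher in the liver (Fzd5 and Fzd8), in both genotypes. Over all genes tested 27.8% were called higher and 34.6% lower in CTR esophagus, and 24.3% and 38.9% in TG esophagus. Fzd6 (NM_008056), which orients hairs in the skin, stood at 1.52, 1.61 and 1.68 in CTR esophagi, 2.53, 1.91 and 1.65 in TG esophagi, -1.21, -1.50 and -2.38 in CTR livers and -1.97, -1.34 and -1.47 in TG livers. All esophagi lay above all livers, by 3.30 (SE 0.32; adjusted p = 7.71e-06) in CTR and 3.62 (SE 0.32; adjusted p = 3.83e-06) in TG mice. Fzd2 differed by 4.01 (SE 0.52) in CTR mice, Fzd1 by 1.70 (SE 0.17) and Fzd7 by 1.47 (SE 0.36). These 3 receptors are closely related in sequence. Fzd3, the relative of Fzd6, was not detected on any liver array and differed by 1.85 (SE 0.41) in measured signal, but its esophagus signal lay below the liver detection limit, so no fold is given.

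Fzd10 showed how much a value can hang on the probe. The probe with the higher mean differed by 2.73 (SE 0.44; adjusted p = 0.000295) between the CTR organs, while the second probe stood at 2.07 ± 0.29 (SD, n = 3) in CTR esophagus and -6.86 ± 0.64 (SD, n = 3) in CTR liver. No CTR liver detected the second probe, which was at least 133-fold higher in CTR esophagus by the bound above. Both had the esophagus higher. Fzd4 (NM_008055), a receptor of vessel growth, read 2.37, 1.95 and 1.93 in CTR esophagi, 1.78, 1.37 and 1.59 in TG esophagi, -0.28, 1.53 and 1.28 in CTR livers and 0.89, -0.76 and 0.41 in TG livers. Livers CTR1 and TG2, the pair with low Per2, were the lowest, and a link between the 2 genes was not tested. The CTR difference of 1.24 (SE 0.49; adjusted p = 0.0487) fell to 0.68 without liver CTR1 (adjusted p = 0.179), was lost on leaving out 8 of the 12 arrays one at a time, and did not pass with the animal as a replicate block (adjusted p = 0.0627).

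Fzd8 (NM_008058) stood at -0.41, 0.01 and -0.54 in CTR livers and -0.76, -0.52 and -0.42 in TG livers, and at -2.89, -2.63 and -2.86 in CTR esophagi and -2.77, -2.65 and -2.92 in TG esophagi. Within each organ these arrays lay close together, and the organs were clearly apart: -2.48 (SE 0.18; adjusted p = 8.84e-07) in CTR and -2.21 (SE 0.18; adjusted p = 2.29e-06) in TG mice. Fzd5 (NM_022721), its closest relative, read -2.75, -2.58 and -2.82 in CTR livers, -3.12, -2.85 and -1.95 in TG livers, -3.27, -3.22 and -3.92 in CTR esophagi and -3.50, -3.45 and -3.57 in TG esophagi. Liver arrays lay above esophagus arrays within each genotype, with small gaps. The CTR difference of -0.75 (SE 0.29; adjusted p = 0.043) did not pass when any of 9 arrays was left out, with the animal as a replicate block (adjusted p = 0.0552), or with the second probe (-0.42).

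The secreted inhibitors of the Sfrp family were all higher in CTR esophagus, 4 of 4, with a median difference of 6.12 in measured signal. Over all genes tested 27.8% were called higher. None of the 4 had its tested probe detected on liver CTR3, so all 4 were tested through the esophagus alone. Sfrp2 (NM_009144), made by fibroblasts in many tissues, stood at 1.53, 1.28 and 1.69 in CTR esophagi, 0.67, 1.07 and 0.98 in TG esophagi, -4.95, -4.76 and -6.10 in CTR livers and -4.86, -5.14 and -4.79 in TG livers. The organs were wide apart, and among the esophagi the 3 TG arrays lay below the 3 CTR arrays. The CTR organ difference was 6.77 (SE 0.31; adjusted p = 2.4e-08), in measured signal, with 1 of 3 livers of each genotype detecting the gene. Sfrp4 (NM_016687) was at 2.24, 2.33 and 2.30 in CTR esophagi and 1.1, 1.64 and 2.11 in TG esophagi, against -3.10, -5.43 and -5.80 in CTR livers and -3.03, -1.86 and -4.49 in TG livers. The 3 CTR esophagi were nearly equal, while liver values spread widely and only 1 of 3 CTR livers and 2 of 3 TG livers detected the gene. The measured differences were 7.07 (SE 0.74; adjusted p = 1.33e-05) in CTR and 4.75 (SE 0.74; adjusted p = 0.000243) in TG mice.

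Sfrp1 (NM_013834) read 0.72, 0.65 and -0.14 in CTR esophagi, 0.61, 0.54 and 0.83 in TG esophagi, -4.95, -4.05 and -6.20 in CTR livers and -4.60, -3.93 and -2.75 in TG livers. Esophagi lay above livers throughout, by 5.47 (SE 0.56; adjusted p = 1.09e-05) in CTR mice; the second probe gave 2.21 and did not pass (adjusted p = 0.158). Sfrp5 (NM_018780) read -2.33, -2.64 and -2.11 in CTR esophagi, -2.32, -2.29 and -2.90 in TG esophagi, -3.60, -4.13 and -6.07 in CTR livers and -2.88, -2.85 and -3.33 in TG livers. Liver CTR3, the lowest array, did not detect Sfrp5. Its organ difference passed in CTR mice (2.24, SE 0.52; adjusted p = 0.00318) and not in TG mice (0.52, SE 0.52; adjusted p = 0.4). The difference between these 2 values did not pass (adjusted p = 0.943, the smallest for any gene in that comparison).

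Of the Dkk inhibitors, Dkk2 and Dkk3 were higher in the esophagus of both genotypes. Dkk2 (NM_020265) stood at 0.24, 0.63 and 0.50 in CTR esophagi, 1.22, 0.61 and 0.91 in TG esophagi, -6.40, -7.88 and -3.35 in CTR livers and -7.32, -7.17 and -4.91 in TG livers. Liver CTR3 was the one liver array that detected it, and the measured CTR difference was 6.33 (SE 0.98; adjusted p = 0.000232). In TG mice, where no liver detected it, the gene was at least 60.2-fold higher in the esophagus (adjusted p = 7.66e-05). Dkk3 (NM_015814), which does not act through Lrp5 and Lrp6 as the others do, read 0.65, -0.27 and -0.22 in CTR esophagi, -0.45, -0.07 and -0.41 in TG esophagi, -3.40, -3.61 and -3.61 in CTR livers and -4.33, -3.16 and -2.94 in TG livers. Esophagus CTR1 was the highest array, and the CTR difference was 3.60 (SE 0.36; adjusted p = 8.9e-06).

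Dkk1 (NM_010051) read -5.54, -5.01 and -6.07 in CTR livers, -4.56, -5.09 and -4.39 in TG livers, -6.67, -7.15 and -5.93 in CTR esophagi and -5.49, -5.86 and -6.60 in TG esophagi. This probe was detected on livers TG1, TG2 and CTR2 and on no esophagus array, so it entered no test, and the second probe was detected on 1 array. Dkk4 was detected on 5 arrays spread over the 4 groups, from -8.21 to -2.08.

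Between TG and CTR esophagus, which differ in the transgene and share the doxycycline, none of the 30 genes tested passed (limma), and 1 had an unadjusted p under 0.05. Of all 23207 genes 0% were called, with 922 below that unadjusted limit and a smallest adjusted p of 0.137. The member with the smallest p was Fzd1 (NM_021457), at 1.49, 1.83 and 1.69 in TG and 1.90, 1.93 and 2.31 in CTR esophagi. All 3 TG arrays lay below all 3 CTR arrays by a small gap, and the difference was -0.38 (SE 0.17; 95% interval -0.74 to -0.01; adjusted p = 1). Within the slide that held esophagi TG1 and CTR2 it was -0.44. Sfrp2 also had its TG arrays below its CTR arrays, with -0.59 (SE 0.31; adjusted p = 1) over all arrays, -0.61 within that slide and -0.15 with the slide as a fixed block.

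Altogether 5 of the 30 genes tested had the TG esophagi all below the CTR esophagi (Fzd1, Fzd4, Sfrp2, Sfrp4 and Wnt10b) and 0 had them all above, where 6.13% and 6.32% of all genes did so. Wnt10b was undetected on esophagus TG1, at -6.46 and below that array's lowest detected signal of -5.75. Fzd6 read higher on esophagus TG1 (2.53) than on the 5 other esophagi (1.52 to 1.91), and differed by 0.43 (SE 0.32; adjusted p = 1). For Wnt4, the interval of the TG difference in the esophagus ran from -1.31 to 1.33, for Wnt3a from -1.28 to 0.80 and for Fzd8 from -0.39 to 0.42. Intervals as wide as the first leave room for differences in either direction that 3 arrays a group could not show. The heart, airway and fat markers had medians of -2.24, -3.83 and -1.74 in the same comparison with 0 called, and were highest on esophagus CTR1 or CTR2. Esophagus CTR1, the highest esophagus for Dkk3, had medians of 4.63 for the 7 heart markers and 3.36 for the 6 airway markers, against -0.15 to 2.98 and -4.22 to 0.29 on the other esophagi. Their part in these values was not tested.

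In the liver none of the 19 genes tested passed between TG and CTR (limma), and 3 had an unadjusted p under 0.05; 0% of the 21245 genes tested were called, with 1769 below that limit. Over all genes, 18 were called without liver TG2, none of them among the 36. The arrays of this comparison were shifted as a whole, with a median difference of 0.126 over all genes under the 75th percentile scaling and 0.022 under quantile normalization. Sfrp5, whose 12 values are given above, had its TG livers (-3.33 to -2.85) above its CTR livers (-6.07 to -3.60). The value of -6.07, on liver CTR3, was not detected and lay below that array's lowest detected signal (-3.97). The difference was 1.58 (SE 0.51; 95% interval 0.46 to 2.70; adjusted p = 0.575). It was 0.80 within the slide of livers TG3 and CTR2, 1.01 without livers TG3 and CTR3, and 0.33 in the authors' deposited table.

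Wnt1 (NM_021279), a ligand of brain development, stood at -2.09, -1.39 and -1.70 in TG livers, -2.10, -2.49 and -3.07 in CTR livers, -2.95, -3.52 and -2.90 in TG esophagi and -2.68, -3.21 and -2.24 in CTR esophagi. The liver groups just failed to overlap, at -2.09 and -2.10. The liver difference was 0.83 (SE 0.32; adjusted p = 0.589), and the organ difference passed in TG mice (-1.39, SE 0.33; adjusted p = 0.00363) and not in CTR mice (-0.15, SE 0.33). Sfrp1 differed by 1.31 (SE 0.55; adjusted p = 0.595) in the liver, and by 0.23 without livers TG3 and CTR3. Fzd7 (NM_008057) read 0.39, -0.58 and -0.23 in TG livers, -0.06, -1.20 and -0.99 in CTR livers, 0.95, 0.45 and 0.94 in TG esophagi and 1.16, 0.26 and 0.74 in CTR esophagi. Its liver groups overlapped, with a difference of 0.61 (SE 0.35; adjusted p = 0.632).

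Sfrp5 and Wnt1 were the 2 genes with all TG livers above all CTR livers, against 8.42% of all genes, and 0 genes lay all below, against 2.87%. Wnt2 differed by -0.33 between TG and CTR liver (SE 0.53; 95% interval -1.51 to 0.85) and Wnt9b by 0.15 (SE 0.35; 95% interval -0.62 to 0.92). Fzd4 differed by -0.66 (SE 0.49; adjusted p = 0.676). The livers of low Per2 were split between the genotypes, and their part in this value was not tested. No gene of the 30 tested passed for the difference between the TG effects of the 2 organs, and 3 had an unadjusted p under 0.05; 0% of all genes were called there.

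**Figure D3:**
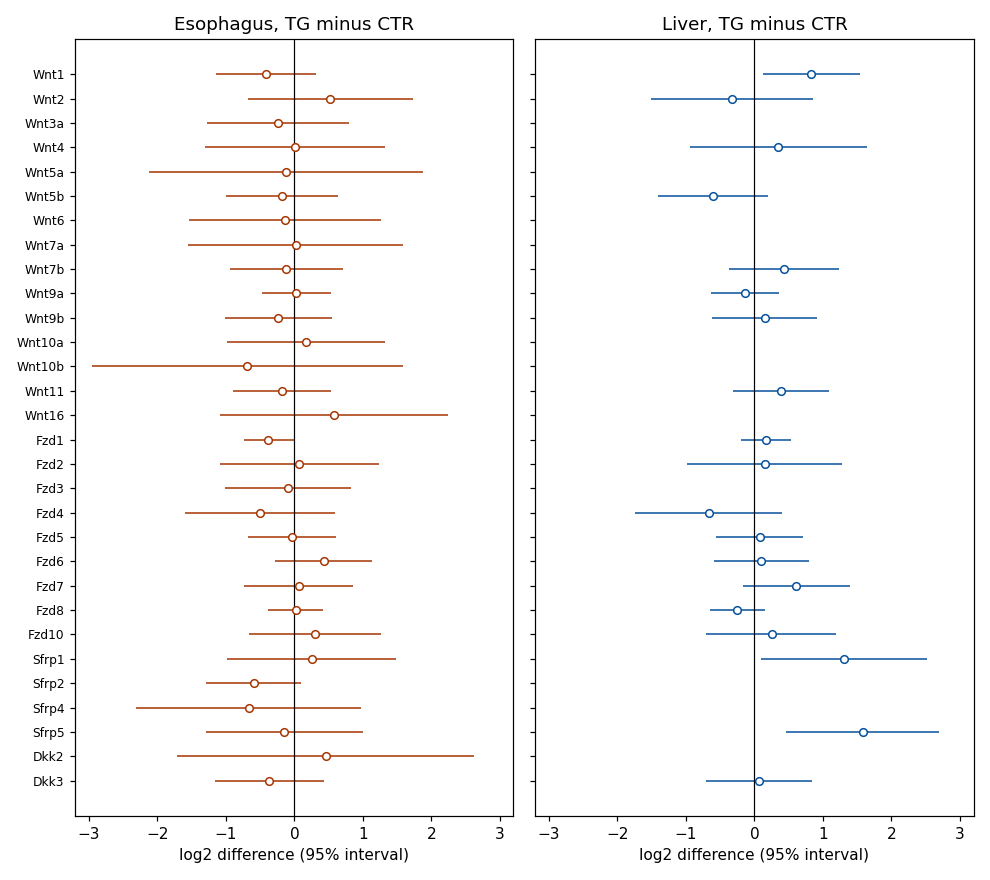
Log2 difference, TG minus CTR (horizontal axis), with its 95% interval from the limma fit, for the genes tested in the esophagus (left, 30 genes) and in the liver (right, 19 genes); every point is open because none passed. Most intervals cross 0, and those of Fzd1 in the esophagus and of Wnt1, Sfrp1 and Sfrp5 in the liver do not, before adjustment over all genes.

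Beyond the 36 genes, 84 other genes of the pathway were listed by role and 76 had a probe. In CTR mice 71 of them could be tested, of which 34 were higher in the esophagus and 24 lower, with a median of 0.50. Over all genes tested 27.8% were higher and 34.6% lower, with a median of -0.137, as given above. Among ligand processing factors and agonists, 3 of 5 tested were higher in CTR esophagus and 2 lower. Wls, the carrier that every cell secreting Wnt needs, stood at 2.24, 2.36 and 2.62 in CTR esophagi and -1.82, -1.75 and -1.55 in CTR livers. The organs were far apart and their replicates close, with a difference of 4.11 (SE 0.20; adjusted p = 4.29e-08). Rspo1, an agonist that spares Frizzled receptors from turnover, was detected on no CTR liver and was at least 108-fold higher (adjusted p = 2.23e-07), and Notum, an enzyme that removes the Wnt lipid, was lower by a log2 difference of -4.77 (SE 0.36).

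Of the 9 other secreted or membrane inhibitors tested, 6 were higher in CTR esophagus and 3 lower. Shisa2, which holds Frizzled in the endoplasmic reticulum, was detected on no CTR liver and was at least 144-fold higher (adjusted p = 3.52e-08). Dkkl1, a Dkk relative, differed by 6.67 (SE 0.35). Sostdc1, which binds Lrp5 and Lrp6, was also detected on no CTR liver and was at least 19.2-fold higher (adjusted p = 1.14e-06). Wif1, another Wnt-binding inhibitor, was at -1.49 in esophagus CTR1 and between -7.61 and -6.20 in the other esophagi, so its group mean there rests on that array, which also held the highest airway and heart markers. Among coreceptors and receptor turnover genes 2 of 8 were higher and 3 lower, near the shares over all genes tested (27.8% and 34.6%). The polarity coreceptor Ptk7 differed by 3.37 (SE 0.34) and Lrp6 by -1.49 (SE 0.22). The ubiquitin ligase Rnf43, which removes Frizzled from the surface, differed by -1.38 (SE 0.19).

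Inside the cell both directions occurred, as they did over all genes tested (27.8% higher and 34.6% lower in CTR esophagus). No list was tested as a set. The 13 cytoplasmic genes tested had 5 higher and 2 lower in CTR esophagus with a median of 0.16, among them the kinase Csnk1e at 2.74 (SE 0.25) and Apc2 at -2.89 (SE 0.30); beta-catenin itself, Ctnnb1, differed by 0.26 (SE 0.14; adjusted p = 0.132). Of 12 nuclear factors 6 were higher and 3 lower, with Tcf7l1 at 1.07 (SE 0.19) and the corepressor Tle2 at -1.58 (SE 0.17). Pygo1 was detected on no CTR liver and was at least 2.1-fold higher (adjusted p = 2.55e-05). The 6 planar polarity genes had 3 higher and 2 lower, with Vangl2, detected on 2 of 3 CTR livers, at 3.43 (SE 0.62) in measured signal, Celsr3 at -1.81 (SE 0.15) and Celsr2 at -1.45 (SE 0.21).

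Target genes went both ways, as did all genes tested (27.8% higher and 34.6% lower in CTR esophagus). Of the 8 general beta-catenin targets 7 were higher in CTR esophagus, among them Cd44 (4.20, SE 0.46), Nkd1 (1.74, SE 0.21) and Axin2 (0.88, SE 0.21), and 1 was lower, Sp5 (-3.01, SE 0.25). Of the 10 central vein hepatocyte targets 8 were lower, with a median of -5.17, among them Gulo (-10.39, SE 0.19) and Slc1a2 (-8.31, SE 0.19); Tbx3 and Rhbg were the 2 higher. The 7 hepatocyte markers tested were lower too, as given above. Lgr5, the receptor for Rspo proteins, was lower in CTR esophagus by a log2 difference of -2.37 (SE 0.36).

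None of the 70 other pathway genes tested in the esophagus and none of the 63 in the liver passed between TG and CTR (limma). In the liver the 7 general beta-catenin targets had a median of 0.60, with an unadjusted p under 0.05 for 3 that were higher in TG and for 1 that was lower, Myc. The 10 central vein hepatocyte targets had a median of -0.11 and 1 such gene. Over all genes tested in the liver the median was 0.126 and 8.33% were below that unadjusted limit. Rnf43, itself a target that feeds back on the pathway, read 3.53, 3.13 and 3.47 in TG and 2.31, 2.47 and 2.32 in CTR livers. The groups were apart by more than the range of either, and the difference was 1.01 (SE 0.19; adjusted p = 0.566). Axin2, a scaffold of the destruction complex that beta-catenin induces, read -0.61, -0.63 and -0.93 in TG and -1.10, -1.75 and -1.46 in CTR livers. These groups were apart too (0.71, SE 0.21; adjusted p = 0.575), as were those of Tbx3 (1.09, SE 0.23; adjusted p = 0.575).

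Of the 62 pathway genes tested in the liver with a value on every array, 10 had all TG livers above all CTR livers and 1 all below. The 10 were Axin2, Csnk1e, Glul, Lgr6, Nkd1, Rnf43, Sp5, Tbx3, Tcf7l1 and Tnks, and the other was Myc, which differed by -1.63 (SE 0.42; adjusted p = 0.575). The shares over all genes were 8.42% and 2.87%. Liver TG3 was the highest liver for Nkd1, Sp5 and Glul but not for Axin2, Rnf43 or Tbx3. In the esophagus Axin2 differed by -0.01 (SE 0.21) and Rnf43 by -0.16 (SE 0.19), and the difference between organs did not pass for either (adjusted p = 0.943 for both). Other targets differed more there: Tbx3 by 0.51 (SE 0.23), Glul by -0.80 (SE 0.24) and Ccnd1 by -0.97 (SE 0.42). Each had an unadjusted p under 0.05 (limma), as did 3.97% of all genes tested, and none passed after adjustment.

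**Figure D4:**
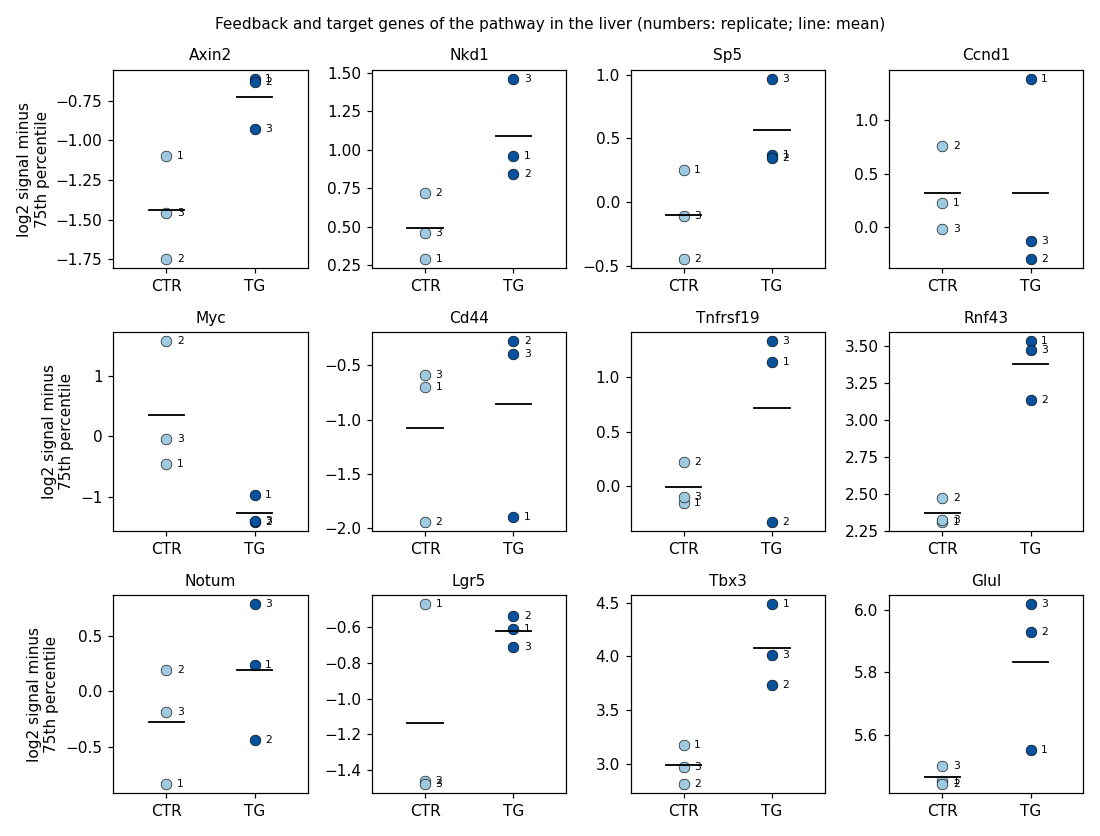
Normalized log2 signal (vertical axis, a separate range in each panel) of the 7 general beta-catenin targets tested (Axin2 to Tnfrsf19) and of Rnf43, Notum, Lgr5, Tbx3 and Glul on the 6 liver arrays; points are arrays with their replicate number, and lines are group means. TG points lie above all CTR points for Axin2, Nkd1, Sp5, Rnf43, Tbx3 and Glul and below all CTR points for Myc, and the groups overlap for Ccnd1, Cd44, Tnfrsf19, Notum and Lgr5; no gene passed between TG and CTR after adjustment over all genes.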

How the data were processed

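Total RNA of 12 samples was labelled with 1 dye and hybridised to 1 array each. The deposited scanner files hold spot intensity values on a linear scale, made with Agilent Feature Extraction 10.7.1.1 on array design 14868 with the background subtracted within each array, per the file headers. A second deposited file holds the authors' own log2 values per array. Its columns share a median of 7.27, and each had a correlation of at least 0.9999 with that array's values after normexp and quantile normalization, so the table is quantile-normalized and not centred; what background correction went into it is not given in the sources used. The submitters' processing notes name limma, with no version.

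Control spots and 1311 outlier spots were left out, no spot was saturated, and spots of one probe were averaged. Probes were named through RefSeq accessions (GRCm38.p6; 23374 named, 17800 kept unnamed), and the design's older build was not used for coordinates. Values are log2 processed signal minus the array's 75th percentile. The probe with the highest mean stood for a gene, which was tested where 1 or more groups of a comparison had that probe flagged as well above background on each of their 3 arrays. A single linear model over the 12 arrays with 4 groups and 8 residual degrees of freedom was fitted with lmFit and eBayes of limma (3.58.1, in R 4.3.3), and two-sided p-values were adjusted by the Benjamini-Hochberg method over all genes tested, with calls at 0.05. Folds are 2 to the power of the difference. The procedure was tested on simulated data. Other software was Python 3.11.15 with pandas 2.3.3 and matplotlib 3.10.9, and for R jsonlite 2.0.0. The number of arrays limits the precision.

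The genes, lists and tests were chosen with earlier results of these data known. Values on every array are given for genes that pass TG minus CTR and the 4 smallest p per organ, the 6 largest organ differences per direction in CTR mice, and Wnt2, Wnt9b, Wnt4, Wnt5a, Fzd4, Fzd6, Sfrp1, Sfrp2, Dkk1 and Dkk3; of each pathway list up to 3 genes by p are named between CTR organs and up to 2 for TG minus CTR. Genes named beyond this rule, among them Wnt7b, Fzd2, Wif1, Lgr5, Ctnnb1 and the 11 pathway genes with separate liver groups, were chosen after their values were seen. Liver and esophagus are paired by the animal numbers of the labels; across all genes the deviations of the 2 organs of a mouse correlated at -0.063 to 0.16. TG and CTR mice share only replicate numbers. The background alternative used the spots' median signal, because the mean signal was not among the columns used here.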

Additional observations from a re-analysis of the deposited data

How the results depend on the processing

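Among the 36 genes, the number called between TG and CTR stayed at 0 in both organs, and for the difference between organs, under every alternative run: quantile scaling, normexp, the authors' deposited table, a common floor, other filters, each probe on its own, slide, replicate and animal blocks, fits to the groups compared alone (not run for the difference between organs), and arrays left out. Over all genes, leaving out single arrays gave up to 18 calls in the liver (without liver TG2; 6 without TG1 and 5 without CTR1) and up to 7 in the esophagus (without esophagus TG2). The count higher in CTR esophagus (21) was 9 and the count higher in TG esophagus (19) was 12 when a probe had to be detected on all arrays compared, since that removes genes dim in the liver. Only 15 genes in CTR and 19 in TG mice could then be tested. Over all genes, 4117 of 17533 tested were then called higher in CTR and 4341 of 19500 in TG esophagus. The count lower in CTR esophagus (4) came to 2 once slide was a fixed block, and the count lower in TG esophagus (4) was 7 with no filter. With single arrays left out the 4 counts ran from 19 to 22, 2 to 4, 16 to 20 and 3 to 6, the low of 2 without liver CTR2. With the replicate block, which takes the animal as the block between organs, 20 and 3 genes were called in CTR mice, and the calls of Fzd4 (adjusted p = 0.0627) and Fzd5 (0.0552) were lost; between TG and CTR the numbers pair nothing, and the block left 0 calls. Without both organs of TG1 and CTR1, CTR counts were 18 higher and 3 lower. Leaving out livers TG3 and CTR3, chosen after seeing the data, gave 22 and 5. Over all genes tested between the CTR organs, 14184 of 23364, 12699 of 23711 and 14839 of 24382 were called under these changes, in the same order. Counted as detected on at least 1 array rather than all 3, 28 genes were detected in CTR and 33 in TG liver through any probe, and 28 and 32 through the probe used in the tests. For Wnt1 in the esophagus the authors' deposited table gave 0.18 against -0.41; the cause was not tested. Over single genes, 552 of 594 alternative values kept direction and side of the threshold, 41 lost a call and 1 reversed. Signal near background limits the liver values of Wnt3a, Wnt5a, Wnt6, Wnt10b, Wnt16, Dkk2, Fzd3, Sfrp2 and Sfrp4. It also limits Wnt4, Wnt7a, Wnt10a, Fzd10, Sfrp1 and Sfrp5 on liver CTR3, where their tested probes were not detected. Wnt7a and Wnt10a were undetected on liver TG1 as well. On esophagus TG1, Wnt7a and Wnt10b were undetected.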
